A study of Mus musculus with 8 samples.

Results

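The 10 genes described here encode the teneurins (Tenm1, Tenm2, Tenm3 and Tenm4), the latrophilins (Adgrl1, Adgrl2 and Adgrl3) and the FLRT proteins (Flrt1, Flrt2 and Flrt3). They were chosen by name, as the rows of the count table whose Ensembl identifier belongs to one of these symbols, and all 10 were found among 32726 gene rows. RNA was measured by poly-A RNA-seq in 8 libraries of neurons cultured from mouse embryos, 4 from knockout (KO) animals that lack the kinase gene Nuak1 in every cell and 4 from wild-type (WT) animals, all harvested after 5 days in vitro in serum-free medium. The labels give the tissue as cortex or hippocampus without saying which for each library, whereas the paper describes the sequenced cultures as cortical neurons. The labels name 2 sequencing lanes, A for KO1, KO4, WT1 and WT3 and B for KO2, KO3, WT2 and WT4, and a strain code, BJ for KO1, KO2 and KO3, BK for KO4, WT2 and WT4, BO for WT1 and BQ for WT3. The sample titles begin with the same letters, and what the codes mean is not given in the sources used here. Since the codes BJ, BO and BQ each occur in 1 genotype, strain code and genotype cannot be fully told apart here. The methods of the study name a C57Bl/6JRj background for its mice. The comparison asks how loss of Nuak1 during axon development changes the RNA of these adhesion genes.

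Teneurins are large single-pass membrane proteins whose extracellular part binds latrophilins on a facing cell, and latrophilins are adhesion G protein-coupled receptors. FLRT proteins carry leucine-rich repeats and bind latrophilins at a separate site, and they also bind the UNC5 netrin receptors. In the developing brain these contacts are known for their parts in axon guidance, in the choice of synaptic partners and in synapse formation.

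All 4 teneurin genes and Adgrl3 had lower normalized counts (CPM, a gene's counts scaled by the library total) in KO than in WT neurons. Adgrl1 and Adgrl2 differed little in their means. The 3 FLRT genes also had lower mean CPM in KO, but passed neither threshold in the model over all 8 libraries. The ratio of mean CPM, KO over WT, was 0.82 for Flrt2, beside 0.84 for Tenm1 and 0.84 for Adgrl3. The estimate was below 0 for 8 of 10 members, beside 46.2% of all genes tested. Tenm3 had the largest difference of the 10, with a log2 fold change of -0.56, and was the 1 member whose KO and WT libraries did not overlap. No member passed the edgeR quasi-likelihood test at an adjusted p under 0.05, where 0.0492% of the 16272 genes tested passed. At an unadjusted p under 0.05, 5 of 10 members passed, beside 10.6% of all genes, and DESeq2 called 1 member, Tenm3, at an adjusted p under 0.05, beside 1.16% of all genes. At the lower threshold of the study, an absolute log2 fold change above 0.25 with an unadjusted p under 0.05, 5 members were lower in KO (Tenm1, Tenm2, Tenm3, Tenm4 and Adgrl3) and 0 were higher, beside 3.53% of all genes lower and 2.22% higher. In RNA from whole cultures, fewer cells of a type and less RNA per cell cannot be told apart.

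The libraries held between 31247078 and 67155004 counts, and the 10 genes between 521 (Flrt1 in WT1) and 66028 counts (Adgrl1 in WT2) per library, so that counting error was small beside the spread between libraries. For Nuak1 itself, the KO libraries held 86 to 102 counts and the WT libraries 1612 to 4598. KO1 and WT1 stood apart from the other 6 libraries on the first principal component, which held 51.9% of the variance of the most variable genes (-27.6 and -28.4 against 0.073 to 22.6). KO3 and WT4 held 1022 to 6134 counts of each of 4 Y-linked genes, where the other 6 libraries had at most 6, and had 95 and 105 counts of Xist. The summed CPM of 7 pan-neuronal markers was 7542 to 8611 in KO and 7636 to 8717 in WT, that of 13 markers of glutamatergic projection neurons was 1106 to 1359 and 1091 to 1319, and that of 8 astrocyte markers was 806 to 1648 and 859 to 1505. The 6 hippocampal neuron markers summed to 114 to 193 CPM in KO neurons against 135 to 158 in WT neurons, and the 11 interneuron markers to 234 to 368 against 206 to 337, with a median log2 fold change of 0.34 and 1 marker past the lower threshold with KO higher. The 11 microglia markers summed to 16.8 to 77.4 CPM against 22.7 to 43.5, and of the 10 tested 9 were higher in KO by estimate and 0 passed the lower threshold, with a median log2 fold change of 1.31. The lower threshold was also passed by 1 of 6 hippocampal neuron markers and 1 of 7 oligodendrocyte lineage markers with KO higher and by 1 of 13 glutamatergic markers with KO lower, and by 0 of the pan-neuronal, astrocyte, progenitor, endothelial and fibroblast markers tested. All 8 markers of dividing cells were higher in KO by estimate, beside 8748 of 16272 genes, and 5 of them passed the lower threshold with KO higher, beside 2.22% of all genes, and their summed CPM ran from 172 to 287 in KO neurons against 71.5 to 208 in WT neurons. The part of dividing cells, or of the other cell types, in the values of the 10 genes was not tested.

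Windows before a start site of each of the 4 teneurin genes are shown because these genes were lower in KO together. Each is the run of 250 bases before a RefSeq start site on GRCm38.p6, written 5′ to 3′ on the strand of the gene, with capitals at matches to the motifs searched: the cAMP response element TGACGTCA, the E-box CACGTG, the TATA box TATAAA, the CCAAT box and the GC box GGGCGG, each on both strands. Tenm1 is at chrX:43274785-43275034, Tenm2 at chr11:36944242-36944491 and Tenm3 at chr8:48674691-48674940, all on the minus strand, and Tenm4 (the first of its start sites in the table) is at chr7:96170994-96171243 on the plus strand.
Tenm1: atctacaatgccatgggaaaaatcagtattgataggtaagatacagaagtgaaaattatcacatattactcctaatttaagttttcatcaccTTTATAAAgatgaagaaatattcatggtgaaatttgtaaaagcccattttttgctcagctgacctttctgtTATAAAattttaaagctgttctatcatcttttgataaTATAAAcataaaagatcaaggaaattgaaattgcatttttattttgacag
Tenm2: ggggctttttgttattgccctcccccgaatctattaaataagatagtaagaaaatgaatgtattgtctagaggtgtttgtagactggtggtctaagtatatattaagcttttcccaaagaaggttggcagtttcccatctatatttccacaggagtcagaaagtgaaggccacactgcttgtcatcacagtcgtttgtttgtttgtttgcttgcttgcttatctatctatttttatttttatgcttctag
Tenm3: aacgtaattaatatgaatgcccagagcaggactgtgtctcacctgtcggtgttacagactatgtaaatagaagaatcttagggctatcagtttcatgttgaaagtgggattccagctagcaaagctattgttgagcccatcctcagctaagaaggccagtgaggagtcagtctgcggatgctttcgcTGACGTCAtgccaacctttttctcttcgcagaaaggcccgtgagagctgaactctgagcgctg
Tenm4: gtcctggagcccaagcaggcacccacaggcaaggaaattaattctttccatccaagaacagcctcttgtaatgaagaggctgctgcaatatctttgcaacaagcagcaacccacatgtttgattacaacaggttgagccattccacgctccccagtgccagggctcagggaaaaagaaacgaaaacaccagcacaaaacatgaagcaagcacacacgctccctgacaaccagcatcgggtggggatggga
Tenm3 carried TGACGTCA at 63 to 56 bases before the start, a motif that reads the same on both strands and occurred in 1.55% of 32817 promoter windows of the same length. Tenm1 carried 4 matches to TATAAA, 1 of them on the reverse strand and overlapping another, where 12.4% of all windows had at least 1. Tenm2 and Tenm4 held none of the 5 motifs on either strand. The share of G and C was 27.2% for Tenm1, 37.2% for Tenm2, 47.6% for Tenm3 and 50.8% for Tenm4, against a median of 52.4% over all windows. The Tenm1, Tenm2 and Tenm3 windows lie inside the annotated span of their genes, downstream of its 5′ end, whereas the Tenm4 window ends where the span begins, so that the first 3 need not be promoters of these genes in these neurons. The Tenm1 and Tenm2 windows end in a pyrimidine-rich run followed by AG, the letters that also close introns, and which start sites these neurons used was not tested. Of the 10 genes, 9 had a start site in the table.

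Tenm3, a teneurin known for matching axons with their targets in the hippocampus and visual system, spans chr8:48225665-49522824 (GRCm38). Its CPM was 243 in KO1, 212 in KO2, 222 in KO3 and 294 in KO4, against 369 in WT1, 369 in WT2, 333 in WT3 and 327 in WT4. Every KO library was below every WT library, and KO4 was the KO library nearest to WT. The mean CPM was 243 ± 36.8 for the KO libraries and 349.5 ± 22.8 for the WT libraries (SD, n = 4 each), and 0.860% of all genes tested had non-overlapping CPM with KO lower. The log2 fold change was -0.56 (95% interval -0.83 to -0.30, SE 0.12) with an unadjusted p of 0.000876, rank 63 of all genes, and an adjusted p of 0.226 in the edgeR quasi-likelihood test. Without KO4 the log2 fold change was -0.71 with an adjusted p of 0.0324 in the same test, where 0.0669% of all genes passed. Every KO library in that fit carries strain code BJ and no WT library does, so genotype and strain code cannot be told apart there. The lower threshold was passed in 8 of 8 fits that left out 1 library. It was missed in lane A alone (-0.41, unadjusted p 0.144, adjusted p 0.9999 in the edgeR test).

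Tenm2, a teneurin known as a high-affinity ligand of latrophilin 1, lies at chr11:36006656-37237053. It measured 413, 504, 548 and 634 CPM in KO1 to KO4 and 564, 812, 599 and 746 CPM in WT1 to WT4. WT2 and WT4 were above every KO library, while KO4 was above WT1 and WT3, so that the groups overlapped. Its log2 fold change was -0.41 (95% interval -0.70 to -0.13), with an unadjusted p of 0.00925 and an adjusted p of 0.362 in the edgeR quasi-likelihood test. The gene passed the lower threshold in 8 of 8 fits without 1 library, and without WT3 its adjusted p in that test was 0.0323, where 0.554% of all genes passed. The lower threshold was missed in lane A alone (-0.17, unadjusted p 0.580, adjusted p 0.9999 in the edgeR test) and without KO3 and WT4 together (-0.39, unadjusted p 0.122, adjusted p 0.9999).

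Tenm4, at chr7:96171244-96911093, is a teneurin also known for a part in myelination. Its CPM was 156 in KO1, 211 in KO2, 211 in KO3 and 225 in KO4, and 262, 294, 192 and 274 in WT1 to WT4. Of the WT libraries only WT3 lay inside the KO range, and KO1 was the lowest library of all 8. The log2 fold change was -0.39 (95% interval -0.75 to -0.03), with an unadjusted p of 0.0362 and an adjusted p of 0.447 in the edgeR quasi-likelihood test. This value rested on single libraries in both directions. It was -0.25 without KO1, with an unadjusted p of 0.130 (adjusted p 0.705 in the edgeR test), and -0.56 without WT3, with an adjusted p of 0.0229, and 2 of 8 such fits passed the lower threshold. With no filter on low counts it was -0.40 with an unadjusted p of 0.0782 in the edgeR test, so that it did not pass the lower threshold. Nor did it pass in lane A alone (-0.28), without KO1 and WT1 together (-0.27) or without KO3 and WT4 together (-0.38).

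Tenm1 is the X-linked member, at chrX:42527866-43429168. It measured 442 CPM in KO1 and 256, 283 and 264 CPM in KO2 to KO4, beside 462, 337, 389 and 300.3 CPM in WT1 to WT4. KO1 and WT1 were the highest libraries of their groups, and KO1 was above WT2, WT3 and WT4. In the model, the log2 fold change was -0.34 (95% interval -0.63 to -0.04), with an unadjusted p of 0.0285 and an adjusted p of 0.420 in the edgeR quasi-likelihood test. It was -0.45 without KO1 and -0.22 without WT3, and 3 of 8 fits without 1 library passed the lower threshold. The call was also lost with 0 surrogate variables (-0.29, unadjusted p 0.191, adjusted p 0.99996 in the edgeR test) and with 2 (-0.21, unadjusted p 0.0730, adjusted p 0.455). In lane A alone Tenm1 did not pass either (-0.30). With KO3 and WT4 left out together the log2 fold change was -0.34, and its adjusted p in the edgeR test was 0.9999.

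**Figure D1:**
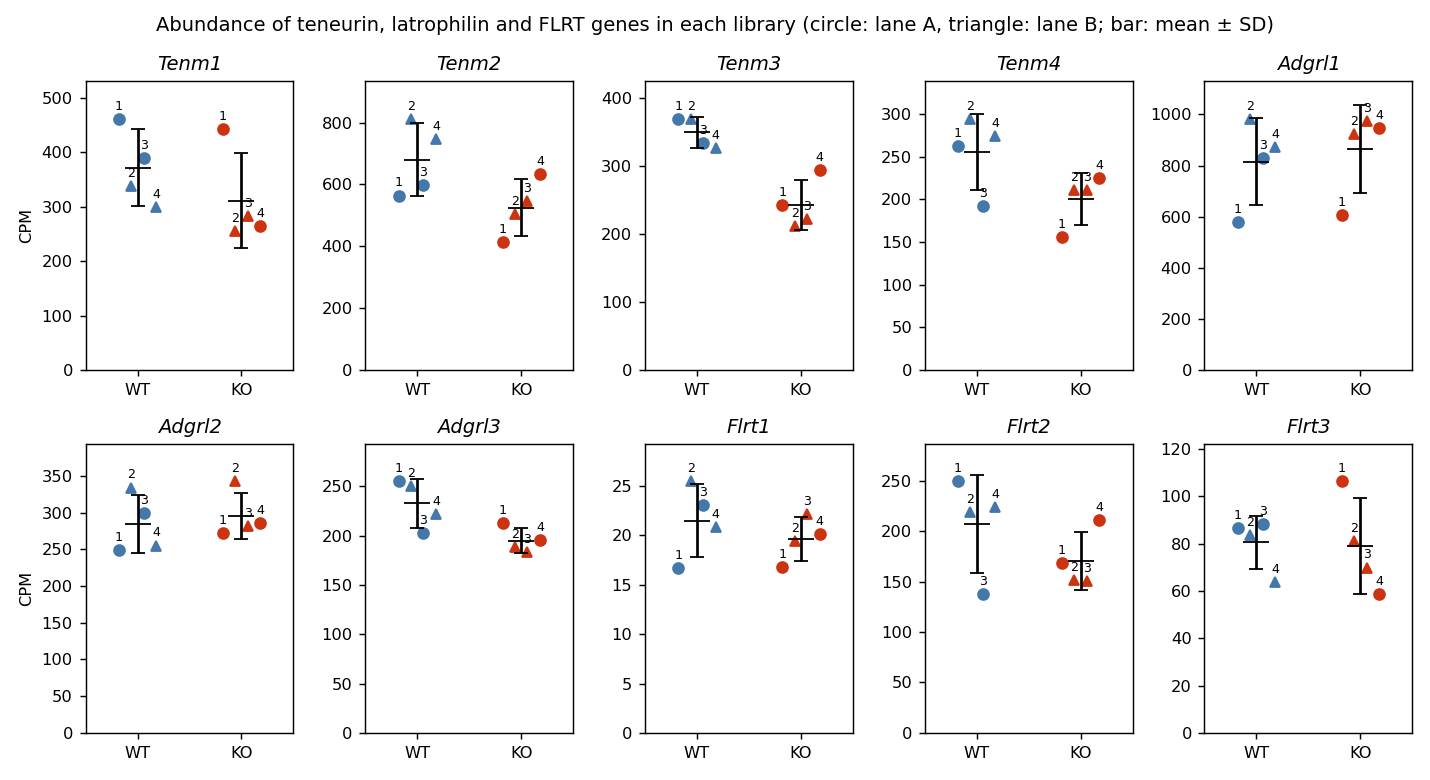
CPM (vertical axis, linear, from 0) of each of the 10 genes in the 4 WT and 4 KO libraries, with the replicate number above each point, circles for lane A, triangles for lane B, and bars for the mean ± SD (n = 4). The 4 KO points of Tenm3 sit between 212 and 294 CPM, below the 4 WT points at 327 to 369 CPM, whereas Adgrl1 is lowest in KO1 and WT1 in both groups.

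The latrophilin estimates differed in sign. Adgrl3, a latrophilin that binds FLRT3 and teneurins, lies at chr5:81019085-81827825 and measured 212, 189, 183 and 195 CPM in KO1 to KO4 against 255, 251, 203 and 222 CPM in WT1 to WT4. KO1 was above WT3 and below the other WT libraries, so that KO was lower in 15 of 16 pairs of 1 KO and 1 WT library. Adgrl3 had a log2 fold change of -0.30 (95% interval -0.48 to -0.12), with an unadjusted p of 0.00404 and an adjusted p of 0.312 in the edgeR quasi-likelihood test. The lower threshold was passed in 7 of 8 fits without 1 library, and without WT2 the value was -0.22. It was missed in lane A alone (-0.19, unadjusted p 0.465, adjusted p 0.9999 in the edgeR test) and without KO3 and WT4 together (-0.29, unadjusted p 0.102, adjusted p 0.9999).

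Adgrl1, the receptor through which the black widow toxin alpha-latrotoxin acts, lies at chr8:83900098-83941954. Its CPM was 607 in KO1, 925 in KO2, 974 in KO3 and 947 in KO4, and 578, 983, 828 and 873 in WT1 to WT4. KO1 and WT1 were low and the other libraries of both groups lay together. The log2 fold change was 0.06 with a 95% interval of -0.17 to 0.28 and an adjusted p of 0.868 in the edgeR quasi-likelihood test. The interval holds differences in either direction.

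Adgrl2, a latrophilin known for placing synapses on hippocampal pyramidal neurons, lies at chr3:148815586-148989096. It measured 273, 342, 282 and 286 CPM in KO1 to KO4 and 249.6, 334, 299.8 and 255 CPM in WT1 to WT4, with the groups overlapping. Its log2 fold change was 0.02 (95% interval -0.21 to 0.26), with an adjusted p of 0.960 in the edgeR quasi-likelihood test. The sign of the Adgrl1 and Adgrl2 estimates changed between alternatives, Adgrl1 being lower in KO in 3 of 20 and Adgrl2 in 5 of 20.

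The FLRT genes had negative estimates, none of which passed the lower threshold in the model over all 8 libraries. Flrt2, an UNC5 and latrophilin ligand at chr12:95692006-95785215, measured 168, 152, 151 and 211 CPM in KO1 to KO4 and 249, 219, 137 and 224 CPM in WT1 to WT4. WT3 was the lowest library of all 8 and KO4 the highest KO library. Flrt2 had a log2 fold change of -0.31 (95% interval -0.74 to 0.12), with an adjusted p of 0.584 in the edgeR quasi-likelihood test. It was -0.49 without KO4, -0.47 without WT3 and -0.20 without KO1, and the first 2 of these passed the lower threshold with adjusted p of 0.348 and 0.182 in that test. In the fit without KO4, genotype and strain code cannot be told apart.

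Flrt3, at chr2:140658198-140671476, measured 106, 81.3, 69.9 and 58.7 CPM in KO1 to KO4 and 86.5, 83.8, 88.3 and 63.9 CPM in WT1 to WT4. KO1 was the highest and KO4 the lowest library of all 8, so the KO range enclosed the WT range. Its log2 fold change was -0.11 (95% interval -0.46 to 0.24), with an adjusted p of 0.831 in the edgeR quasi-likelihood test. Over the fits without 1 library it ran from -0.26 (without WT1) to -0.01 (without WT3), and 0 of 8 passed the lower threshold. Flrt1, at chr19:7087464-7166183, was the least abundant member at 16.8, 19.4, 22.1 and 20.1 CPM in KO1 to KO4 and 16.7, 25.4, 23.0 and 20.8 CPM in WT1 to WT4. Its groups overlapped, with a log2 fold change of -0.15 (95% interval -0.36 to 0.06) and an adjusted p of 0.585 in the same test. Without 1 library the Flrt1 value ran from -0.19 (without WT4) to -0.07 (without WT2), and 0 of 8 fits passed the lower threshold. Flrt1 lies within the span of Macrod1 (1.11 CPM in KO and 1.19 in WT) and Flrt3 within that of Macrod2 (70.8 and 72.1 CPM), and whether the counting used strand is not given in the sources used here.

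**Figure D2:**
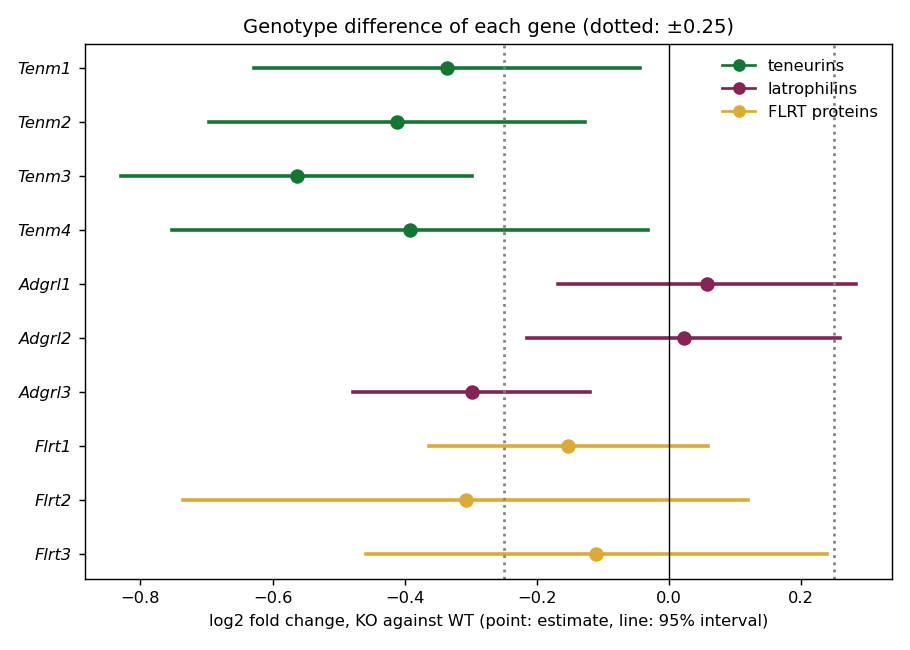
Log2 fold change of KO against WT (horizontal axis) for each gene with its 95% interval from the edgeR model, n = 4 libraries a group, with dotted lines at the study's threshold of 0.25 in either direction. The intervals of Tenm1 to Tenm4 and Adgrl3 lie below 0, and those of the other 5 genes include 0.

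Within families, the members held different shares of the counts. Tenm2 gave 40.9% of the teneurin counts on average over the 8 libraries, Tenm1 23.5% and Tenm4 15.5%, with Tenm3 between Tenm1 and Tenm4. The share of Tenm3 was 18.9% ± 1.47 in KO and 21.1% ± 1.20 in WT (SD, n = 4), with the ranges of 17.6% to 20.8% and 19.8% to 22.3% overlapping. Tenm1 reached 35.2% in KO1 (95% Wilson interval 34.8% to 35.7%, which covers counting error only) and 27.9% in WT1, above the other libraries of the same group. Adgrl1 gave 62.0% of the latrophilin counts and Flrt2 64.7% of the FLRT counts.

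Summed over the family, the teneurins reached 1254, 1183, 1263 and 1418 CPM in KO1 to KO4 and 1657, 1813, 1512 and 1647 CPM in WT1 to WT4, without overlap. The sum of the latrophilins ran from 1092 to 1456 CPM in KO neurons against 1083 to 1568 CPM in WT neurons, and that of the FLRT genes 243 to 291 and 249 to 352 CPM, both with overlap. These sums are descriptions and were not tested.

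**Figure D3:**
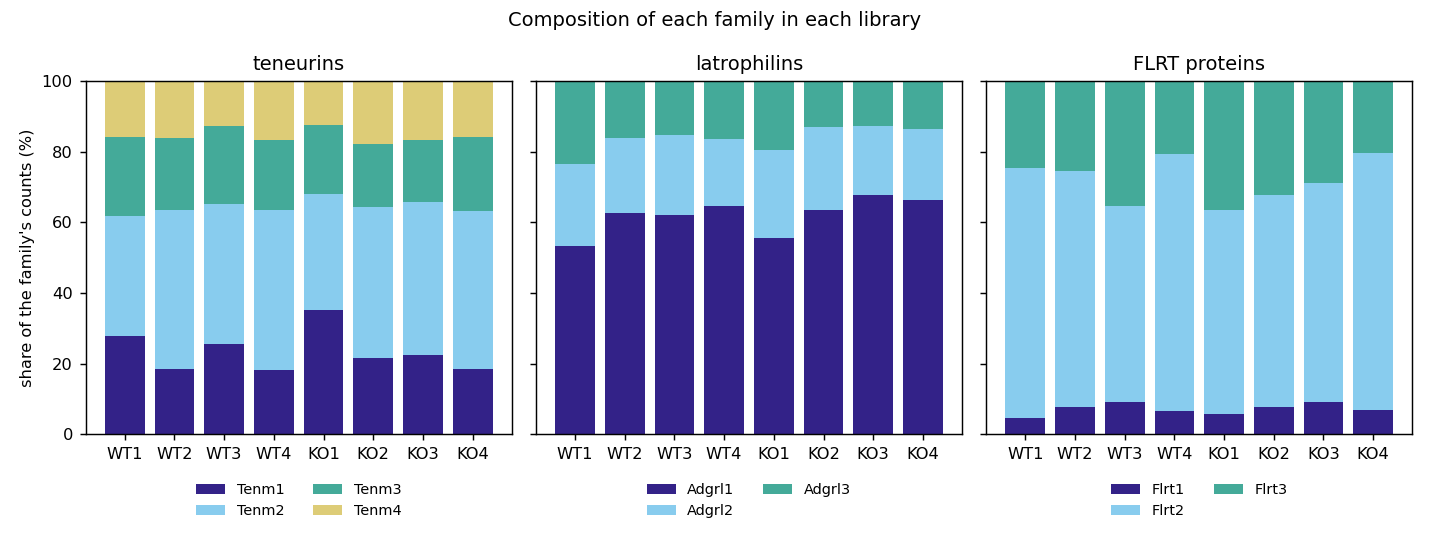
Share (percent, stacked bars from 0 to 100) of the counts of each family held by each gene in each of the 8 libraries. Tenm2 and Tenm1 fill most of the teneurin bars, Adgrl1 most of the latrophilin bars and Flrt2 most of the FLRT bars, and Tenm1 has its largest share, 35.2%, in KO1.

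Per kilobase of the longest annotated transcript, the mean level over the 8 libraries was highest for Adgrl1 at 103 CPM per kb, followed by Tenm2 at 60.8 and Adgrl2 at 47.9. Tenm3 followed at 33.0, Adgrl3 at 31.5, Flrt2 at 26.6, Tenm1 at 26.5, Flrt3 at 20.1 and Tenm4 at 16.8 CPM per kb, and Flrt1 was lowest at 3.51. Adgrl1 was above Tenm2, Adgrl2 above Tenm3 and Tenm4 above Flrt1 in 8 of 8 libraries. Flrt2 exceeded Tenm1 in 4 of 8 libraries and Flrt3 exceeded Tenm4 in 5, so these neighbours did not differ beyond their spread. Tenm3 exceeded Adgrl3 in 5 of 8 libraries, and the order of their means differed by genotype. In WT, Tenm3 was at 39.0 ± 2.54 and Adgrl3 at 34.3 ± 3.61 CPM per kb. In KO, Tenm3 was at 27.1 ± 4.11 and Adgrl3 at 28.7 ± 1.86 CPM per kb (SD, n = 4 each). The remaining neighbours kept their order in 6 or 7 of 8 libraries. The order also depends on the length used, since Flrt2 takes rank 2 per kilobase of coding sequence, and the lengths come from an older GENCODE annotation than the counts.

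The libraries on lane B, KO2 and KO3 against WT2 and WT4, gave estimates larger in size than those on lane A for 4 of 4 teneurins, nearly equal for Tenm1. The log2 fold change on lanes A and B was -0.41 and -0.75 for Tenm3, -0.17 and -0.64 for Tenm2, -0.28 and -0.50 for Tenm4, and -0.30 and -0.31 for Tenm1. Adgrl3 gave -0.19 and -0.42, and Flrt2 gave -0.06 and -0.62. In lane B alone 6 members passed the lower threshold with KO lower, beside 4.53% of all genes, and in lane A alone 0 did, beside 0.462%. At an adjusted p under 0.05, 4 members (Tenm2, Tenm3, Tenm4 and Flrt2) passed in lane B alone, beside 0.588% of all genes, and 0 in lane A alone. Lane A holds KO1 and WT1, the libraries that stood apart. In lane B both KO libraries carry the strain code BJ and both WT libraries BK, so that genotype and strain code cannot be told apart there. The difference between lanes was tested as a genotype by lane interaction, and no member passed: the lowest unadjusted p was 0.185, for Tenm2, with an adjusted p of 0.99998 in the edgeR quasi-likelihood test, beside 1.57% of all genes with an unadjusted p under 0.05. With no filter on low counts the unadjusted p of the interaction was 0.0418 for Flrt2 (-0.61) and 0.0700 for Tenm2 (-0.51), with an adjusted p of 0.9999 for both in the edgeR test.

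**Figure D4:**
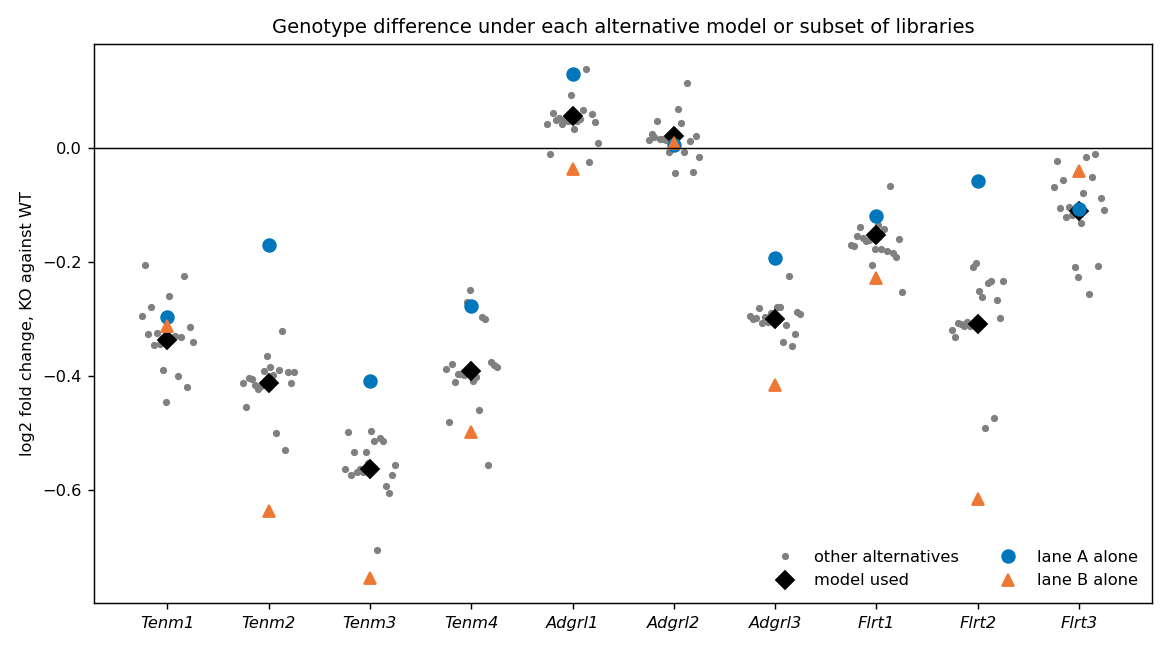
Log2 fold change of KO against WT (vertical axis) of each gene in the model used (black diamond), in lane A alone (blue circle), in lane B alone (orange triangle) and in 18 other alternatives (grey points). All points of Tenm1 to Tenm4, Adgrl3 and Flrt1 to Flrt3 lie below 0, and those of Adgrl1 and Adgrl2 lie on both sides of 0.

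The members also differed in how they varied between libraries. Tenm2 and Tenm4 were the most alike pair, with a root mean square difference of 0.15 in centred log2 CPM over the 8 libraries, and Tenm1 and Adgrl1 were the least alike at 0.58, being high and low in turn in KO1 and WT1. Tenm2, Tenm4 and Flrt2 had the widest ranges of log2 CPM. The genes most like Tenm2 were Slc29a3 (0.13), Dpf3 (0.13) and Ckap4 (0.13), those most like Tenm4 were Dpf3 (0.12), Fzd7 (0.12) and Slc24a1 (0.13), and those most like Flrt2 were Vcan (0.05), Xpr1 (0.08) and Slc35f2 (0.09), by the same measure over 8 libraries.

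Of 14 listed surface partners, among them the UNC5 and FGF receptor genes, 13 were tested, with a median log2 fold change of -0.18 against 0.01 for all genes tested. Of these, 2 passed the lower threshold with KO lower, beside 3.53% of all genes, and 0 with KO higher. Cntn6, a contactin that binds latrophilin 1, was 1 of them, with a log2 fold change of -0.33 and an adjusted p of 0.445 in the edgeR quasi-likelihood test. The partners of the FLRT proteins did not pass: the log2 fold change was -0.25 for Unc5d, with an adjusted p of 0.546 in the edgeR test, 0.03 for Unc5b and 0.08 for Fgfr1. Adgrl4 had at most 6 counts in any library and was not tested.

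Of 16 intracellular partners tested, the median log2 fold change was 0.04, and 1 passed the lower threshold with KO higher, beside 2.22% of all genes, and 0 with KO lower, beside 3.53%. Gnai2, an inhibitory G protein alpha subunit, had a mean CPM of 134 ± 38.3 in KO neurons against 113 ± 36.8 in WT neurons (SD, n = 4), with a log2 fold change of 0.26 and an adjusted p of 0.282 in the edgeR quasi-likelihood test.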

How the data were processed

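The authors deposited raw counts per Ensembl gene. According to the submitters' processing notes and the study's methods, reads were trimmed with cutadapt 1.10, filtered with Bowtie2 2.2.8, aligned to mm10 with STAR 2.5.3a and counted with HTSeq 0.6.1p1. The labels describe paired-end reads and the methods single-end reads, and this was not resolved.

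Genes were filtered by edgeR's filterByExpr, scaled by TMM and tested with edgeR 4.0.16 (robust quasi-likelihood F test, Benjamini-Hochberg adjustment over 16272 genes) with 1 surrogate variable from sva 3.50.0, since the study's model also used SVA. CPM values were computed by library total, and all 10 members passed the filter. DESeq2 1.42.0 was an alternative. The methods describe 4 animals a condition, and p-values measure only the spread between these libraries. No 2 libraries agreed within sampling noise (chi-square per degree of freedom 18.8 to 199 over 28 pairs).

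The 10 members and all lists were chosen with earlier results of these data known. Members were all named, and some partner genes are not reported here. Partners were named if past the lower threshold, with Unc5d, Unc5b and Fgfr1 named in any case, and alike genes were the 3 nearest to each of the 3 members of widest range. Promoter windows are from RefSeq on GRCm38.p6. Alternatives changed the surrogate variables, scaling, filter, tool, lane, replicate block and libraries.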

Additional observations from a re-analysis of the deposited data

Results flagged for a closer look

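In the KO group, Tenm1 was 442 CPM in KO1 and 256 to 283 CPM in the other 3 libraries, a gap that passed Dixon's test for a single outlying value. Adgrl1 was 607 CPM in KO1 and 925 to 974 CPM in the other 3, which also passed. Of 20 groups of 4 libraries tested, 2 were flagged, where chance flags about 1 in 20. WT1 stood at the same end of its group for both genes, at 462 and 578 CPM, and KO1 and WT1 were the 2 libraries apart on the first principal component.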

How the results depend on the processing

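Over 20 alternatives, of which 18 were planned and 2 were chosen after seeing the data, the 4 teneurins, Adgrl3 and the 3 FLRT genes were lower in KO in every one. The sign of Adgrl1 turned with 2 surrogate variables (-0.0101) and in lane B alone (-0.0365), and over the fits without 1 library it ran from -0.0241 (without WT3) to 0.139. That of Adgrl2 turned without KO1 and WT1 (-0.00646) and without KO3 and WT4 (-0.0156), and ran from -0.0439 (without KO2) to 0.115 without 1 library. The Adgrl2 interaction (0.01) turned with DESeq2 size factors (-0.00241) and with no filter (-0.0397). An adjusted p under 0.05 was reached by Tenm3 with DESeq2 (-0.57), by 4 members in lane B alone (Tenm2 -0.64, Tenm3 -0.75, Tenm4 -0.50, Flrt2 -0.62), and by 0 to 2 members without 1 library, where Tenm2 ran from -0.53 to -0.32, Tenm3 from -0.71 to -0.50 and Tenm4 from -0.56 to -0.25. The count of members past the adjusted threshold was 1 with DESeq2. In lane B alone and without KO4, genotype and strain code cannot be told apart. The count past the lower threshold, 5 in the model used, was 0 in lane A alone (0.462% of all genes lower in KO), 1 without KO3 and WT4 (0.879%), and 2 to 5 without 1 library (2.17% to 4.77%). The cause was not tested. Per kilobase the shares were 23.9% for Tenm3, 12.3% for Tenm4, 55.9% for Adgrl1, 26.5% for Adgrl2, 52.7% for Flrt2 and 40.2% for Flrt3.

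Genes called over the whole table at an adjusted p under 0.05 numbered 8, and 4 with 0 or 2 surrogate variables, 14 with lane as a term, 45 with no filter, 188 with DESeq2, 0 in lane A and 99 in lane B. At the lower threshold they numbered 936, against 396 without a surrogate variable, 1488 with no filter, 96 in lane A, 1612 in lane B, 555 without KO1 and WT1 and 229 without KO3 and WT4. Libraries of the same replicate number also share a lane for numbers 1 and 2, and a strain code for number 4. Whether they were paired by number is not given in the sources used here. The deviations of KO1 and WT1 correlated at 0.80, above every pair of different number (-0.53 to 0.42). Those for numbers 2 to 4, at 0.012, 0.249 and 0.0023, lay within that range. With the replicate block 5 members passed the lower threshold, beside 3.39% of all genes lower in KO, and 0 the adjusted one, Tenm3 at -0.53, and 3 genes in all passed the adjusted one. With 4 libraries a group, the intervals of Adgrl1 and Adgrl2 hold differences in either direction.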
